A study of Homo sapiens with 4 samples.

Results

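The small RNA silencing machinery was taken here as 10 protein-coding genes, picked by symbol from the 60725 genes of the count table. These are DROSHA, DGCR8, XPO5, DICER1, AGO1, AGO2, AGO3, AGO4, TNRC6A and TNRC6B, and all 10 of the 10 passed the filter on low counts. Polyadenylated RNA was sequenced from RPE1 SunTag cells, an hTERT-RPE1 line (human retinal pigment epithelium immortalised with telomerase) that carries the SunTag system for recruiting many copies of an antibody-fused protein to a repeated peptide. In the 2 control libraries, labelled scramble, the cells received Silencer Select Negative Control No. 2 siRNA, and in the 2 TOP2B knockdown libraries an ON-TARGETplus SMARTpool against TOP2B, the gene of DNA topoisomerase II beta. Both groups were transfected at 10 nM in 2 rounds 48 hours apart and collected 72 hours after the second, on day 5. The comparison asked which transcripts differed once this topoisomerase was depleted. The siRNA reagent differed between the groups as well, so effects of the reagent cannot be told apart from those of TOP2B depletion.

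MicroRNA genes are transcribed into long primary transcripts. In the nucleus, DROSHA and its RNA-binding partner DGCR8, together called the Microprocessor, cut out a hairpin, which exportin 5 carries to the cytoplasm, and DICER1 then trims the hairpin to a short duplex. An Argonaute protein keeps 1 strand as a guide to complementary sites, mostly in 3′ UTRs, and TNRC6 (GW182) scaffolds bind the Argonaute and bring in deadenylases and decapping factors. A transfected siRNA enters the same pathway at the Argonaute step, so every library of this experiment, controls included, came from cells whose silencing machinery had been loaded with an siRNA. No library from untransfected cells was analysed here, and what siRNA transfection itself does to these genes cannot be told apart from the level of the control group.

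Library totals lay between 20310259 and 23887013 counts. Levels are given as CPM, read counts scaled to the library's total times its TMM scaling factor from edgeR (0.994 to 1.005). By this scale 1 CPM stood for 20.19 to 23.98 counts, and each of the 10 genes had between 505 and 4533 counts in every library. TOP2B was at 154.7 and 143.4 CPM in the control libraries and at 15.3 and 13.3 CPM after knockdown, a log2 fold change of -3.38 (SE 0.14, adjusted p = 5.1e-06). Of 15356 genes tested, 1023 were higher and 642 lower after knockdown at an adjusted p below 0.05. Of 12 markers of the retinal pigment epithelium and of this line, 9 were detected with at least 10 counts in a library, among them MITF, OTX2, KRT8 and KRT18. However, RPE65 and TYR were at 0 counts in every library and RLBP1 had at most 1. Of the other pigment epithelium genes, BEST1 had 14 to 20 counts and PMEL 7 to 31 counts a library, 0.31 to 1.46 CPM. The 6 blood markers together stayed below 0.40 CPM in every library, and the 6 muscle and neuron markers together were at 7.73 to 11.1 CPM, of which SNAP25 alone gave 7.08 to 10.2 CPM. In bulk RNA, fewer cells with a transcript and less transcript per cell cannot be told apart.

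After TOP2B knockdown AGO1 was higher by 0.60 on the log2 scale, 1.52-fold. It was the only 1 of the 10 genes that passed the test, a share near the background of 10.8% of all genes tested (6.66% called higher and 4.18% called lower). The fitted log2 fold changes of 4 genes were above 0 and those of 6 below it, with a median of -0.04 beside -0.003 over all genes tested. For 6 genes, DROSHA, XPO5, DICER1, AGO2, AGO3 and TNRC6A, the fitted difference was under 0.1 in size, and 0 of the 10 genes differed by 2-fold. At an unadjusted p below 0.05 stood 2 genes, AGO1 and AGO4, against 26.3% of all genes. In 4 genes the control and knockdown libraries did not overlap in CPM, AGO1 and DGCR8 being higher and AGO4 and DROSHA lower after knockdown, while 54.3% of all genes tested had groups that did not overlap.

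**Figure D1:**
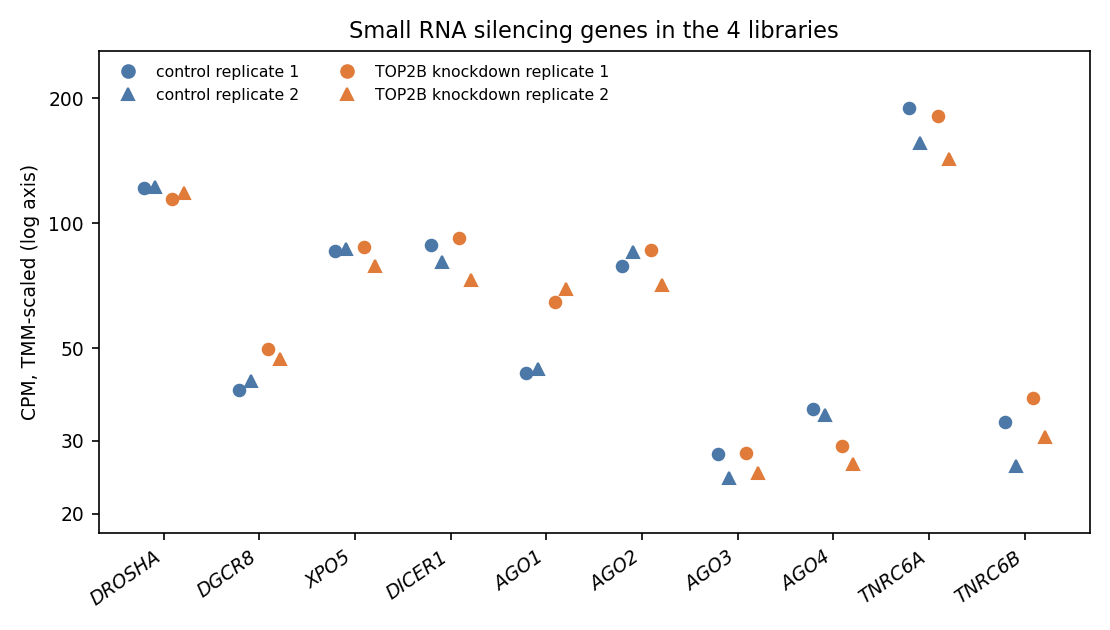
Level of each gene in CPM (log axis) in each of the 4 libraries, with control and TOP2B knockdown marked separately. The control and knockdown points stand apart upward for AGO1 (43.5 and 44.5 against 64.5 and 69.4 CPM) and DGCR8 and downward for AGO4 and, narrowly, DROSHA, and overlap for the other genes.

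DROSHA, the nuclease of the Microprocessor (ENSG00000113360, chr5:31400494-31532196, minus strand, GRCh38), was the most abundant of the 10 transcripts per length. It was at 121.3 and 122.5 CPM in the controls and at 114.6 and 118.2 CPM after knockdown. Both knockdown libraries were below both controls, but by little. On the log2 scale DROSHA differed by -0.07 (SE 0.12, 95% interval -0.32 to 0.19, adjusted p = 0.77), and it was not called.

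DGCR8, which binds the primary hairpin and positions DROSHA on it (ENSG00000128191, chr22:20080221-20111877, plus strand), was at 39.8 and 41.7 CPM in the controls and at 49.7 and 47.1 CPM after knockdown. Both knockdown libraries lay above both controls. The means were 40.8 ± 1.4 and 48.4 ± 1.9 CPM (SD, n = 2 each), a log2 fold change of 0.25 (SE 0.12, 95% interval -0.01 to 0.51). With an adjusted p of 0.21, the difference was not called. The DROSHA to DGCR8 ratio per length was 2.87 and 2.76 in the controls and 2.17 and 2.36 after knockdown, so that DROSHA transcript exceeded DGCR8 transcript in every library and by less in the knockdown. With 2 libraries a group, an exact permutation test of such a ratio cannot fall to 0.05, and none was made.

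The DGCR8 transcript itself carries microRNA hairpins that the Microprocessor cuts, a well-known feedback on its own mRNA, and for that reason their mature sequences are shown. In RefSeq (GRCh38.p14) 3 mature microRNAs lie in DGCR8 exon 2, here placed on transcript ENST00000351989. The sequences are written 5′ to 3′, with the seed, bases 2 to 8, in capitals.
hsa-miR-3618: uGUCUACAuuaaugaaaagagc
hsa-miR-1306-5p: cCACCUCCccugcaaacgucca
hsa-miR-1306-3p: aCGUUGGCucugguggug
The first lies at chr22:20085797-20085818, ahead of the coding sequence. The other two come from 1 hairpin, at chr22:20086072-20086093 and chr22:20086112-20086129. Their 3 seeds differ from one another. Mature microRNAs are not captured in a polyadenylated RNA library, so their amounts were not measured. Of the DGCR8 exon bases, 9.57% overlap exons of other genes (both hairpins, an antisense gene with 0 counts, and TRMT2A). How reads there were counted was not settled.

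XPO5, or exportin 5, which carries hairpin precursors out of the nucleus (ENSG00000124571, chr6:43522334-43576038, minus strand), was at 85.6 and 86.7 CPM in the controls and at 87.9 and 78.9 CPM after knockdown. The knockdown libraries lay on either side of the controls. For XPO5 the fitted log2 fold change was -0.05 (SE 0.12, 95% interval -0.31 to 0.22, adjusted p = 0.84), and its sign turned, to 0.04, without knockdown replicate 2. Of the XPO5 exon bases, 4.10% overlap POLR1C on the opposite strand.

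DICER1, the cytoplasmic nuclease (ENSG00000100697, chr14:95086228-95158010, minus strand), was at 88.5 and 80.5 CPM in the controls and at 92.4 and 73.0 CPM after knockdown. The knockdown range enclosed the control range. DICER1 had a log2 fold change of -0.03 (SE 0.14, 95% interval -0.34 to 0.28, adjusted p = 0.92), and it was above 0 without control replicate 1 (0.04) or knockdown replicate 2 (0.14). Among the processing and export genes, DROSHA, DGCR8, XPO5 and DICER1, none was called, beside 10.8% of all genes tested. With so few genes, this is not read as a result about these steps. The outer bounds of their intervals were -0.34 and 0.51.

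**Figure D2:**
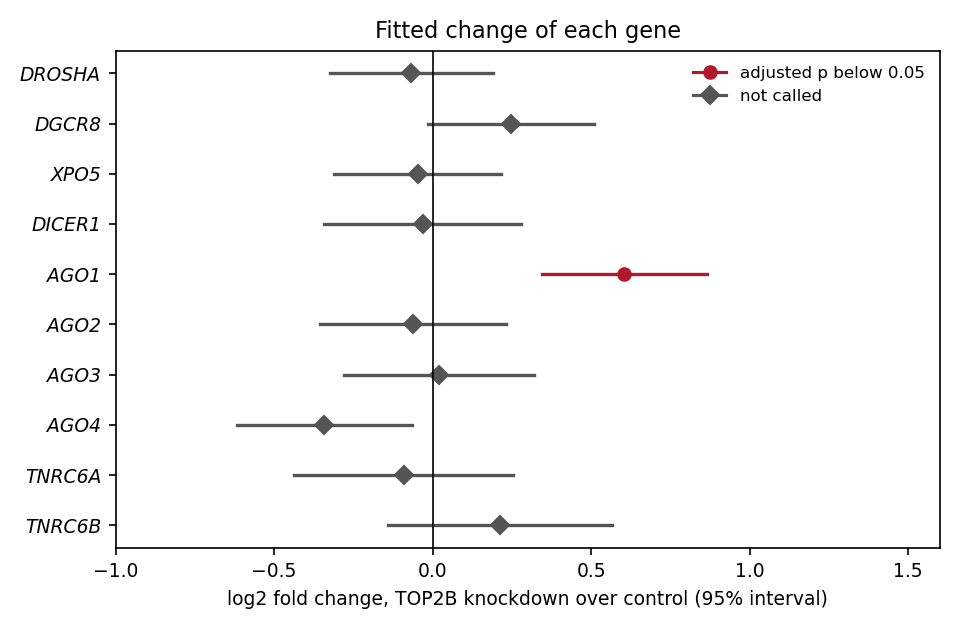
Fitted log2 fold change (TOP2B knockdown over control) of each gene with its 95% interval from edgeR. AGO1 (0.60, interval 0.34 to 0.86) is the only called gene, the interval of AGO4 (-0.62 to -0.06) also lies to one side of 0, and the other 8 intervals span 0.

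The 4 Argonautes did not move together. AGO1 rose, while AGO2, AGO3 and AGO4 were not called. Of the 4 proteins, AGO2 is the main slicer, able to cut a target that pairs fully with its guide, and all 4 can hold a microRNA and recruit TNRC6.

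AGO1 (ENSG00000092847, chr1:35869808-35930532, plus strand) was at 43.5 and 44.5 CPM in the controls and at 64.5 and 69.4 CPM after knockdown. Both knockdown libraries stood well above both controls. The means were 44.03 ± 0.69 and 66.96 ± 3.4 CPM (SD, n = 2 each), a log2 fold change of 0.60 (SE 0.12, 95% interval 0.34 to 0.86, adjusted p = 0.011). The difference in means was several times the spread within either group. From the most negative to the most positive, the log2 fold change ranked at the 91st percentile of all genes tested. Without 1 library at a time it was 0.56 to 0.66, with adjusted p from 0.0090 to 0.037, in fits where the lone library of a group is assumed to vary like the group that still has 2. Of the AGO1 exon bases, 2.82% overlap another gene, an antisense RNA with 0 counts.

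AGO2 (ENSG00000123908) was at 79.0 and 85.5 CPM in the controls and at 86.3 and 71.2 CPM after knockdown. The knockdown libraries lay above and below the controls. AGO2 had a log2 fold change of -0.06 (SE 0.13, 95% interval -0.35 to 0.23, adjusted p = 0.81). Its sign turned without control replicate 2 (0.003) or knockdown replicate 2 (0.08).

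AGO3 (ENSG00000126070, chr1:35930718-36072500, plus strand) was at 27.8 and 24.4 CPM in the controls and at 28.0 and 25.0 CPM after knockdown. The groups overlapped nearly in full. The log2 fold change was 0.02 (SE 0.13, 95% interval -0.28 to 0.32, adjusted p = 0.94), and it was -0.06 without control replicate 2 or without knockdown replicate 1.

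AGO4 (ENSG00000134698, chr1:35808016-35857890, plus strand) was at 35.8 and 34.5 CPM in the controls and at 29.1 and 26.4 CPM after knockdown. Both knockdown libraries were below both controls. The means were 35.2 ± 0.95 and 27.7 ± 2.0 CPM (SD, n = 2 each), a log2 fold change of -0.34 (SE 0.12, 95% interval -0.62 to -0.06). The unadjusted p of edgeR was 0.021 and the adjusted p 0.11, so the difference was not called.

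AGO4, AGO1 and AGO3 lie side by side on the plus strand of chromosome 1, in this order, within 264.5 kb. The gap from the end of AGO4 to the start of AGO1 is 11.9 kb, while only 185 bases part AGO1 from AGO3. The 3 neighbours had log2 fold changes of -0.34, 0.60 and 0.02, so that the called gene stood between one that was lower in both knockdown libraries without passing the test and one whose groups overlapped. No 65-base window, the read length of the study, from an Argonaute gene's canonical transcript occurred in a transcript of another Argonaute gene. The same held among the TNRC6 genes. Exons outside the canonical transcripts were not compared with each other.

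**Figure D3:**
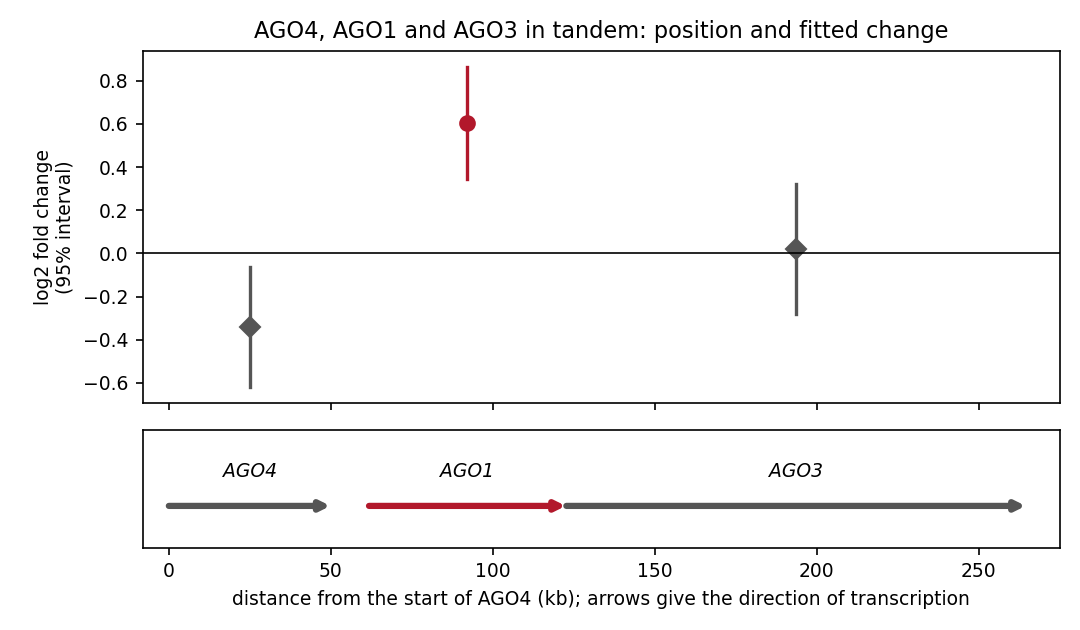
Map of the AGO4, AGO1 and AGO3 genes on chromosome 1, by distance from the start of AGO4 in kb, with the log2 fold change and 95% interval of each drawn at its position. The middle gene, AGO1, lies at 0.60 and its neighbours at -0.34 (AGO4) and 0.02 (AGO3).

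The composition of the Argonaute transcripts was compared per length, as each gene's share of the summed CPM per kb of exon. AGO1 made up 21.8% and 22.1% of the Argonaute sum in the controls and 30.1% and 34.9% after knockdown. AGO4 made up 33.9% and 32.3% in the controls and 25.7% and 25.1% after knockdown. The shares of AGO2 (31.7% to 37.6%) and AGO3 (8.03% to 9.25%) overlapped between the groups. The summed level was 14.2 and 14.4 CPM per kb in the controls and 15.3 and 14.2 CPM per kb after knockdown, with no separation of the groups. The AGO1 to AGO4 ratio per length was 0.64 and 0.68 in the controls and 1.17 and 1.39 after knockdown. Per length, AGO4 was thus the higher of the pair in each control and AGO1 in each knockdown library. This order rests on the annotated exon lengths, 14043 bases for AGO1 and 7423 for AGO4. In CPM, with no division by length, AGO1 was above AGO4 in every library. These shares rest on the same contrast as the fold changes above and add no separate test.

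**Figure D4:**
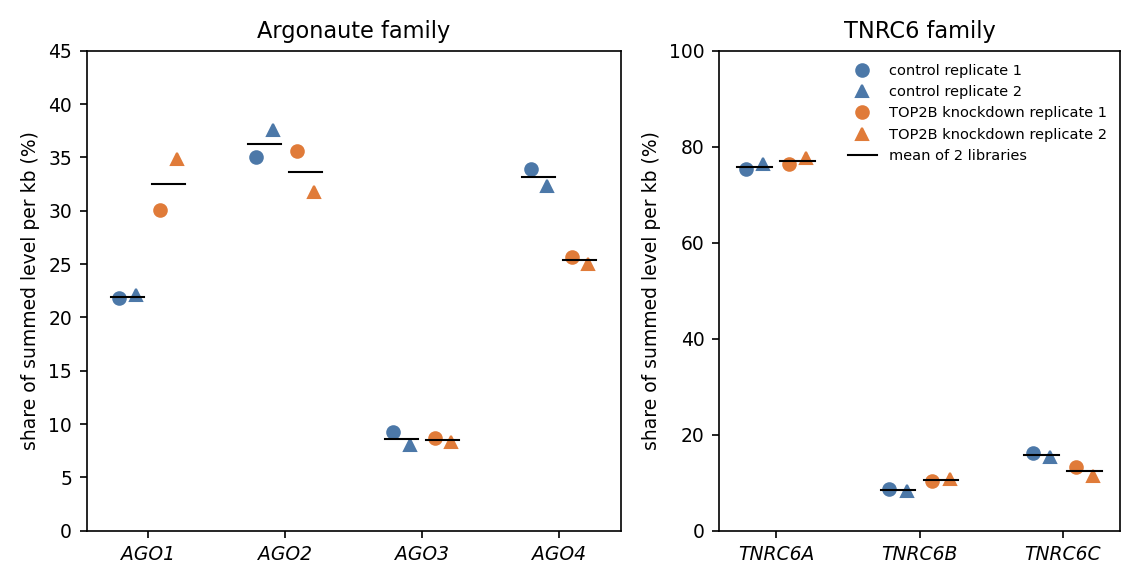
Share of each gene in the summed CPM per kb of the Argonaute family and of the TNRC6 family, in percent, for each of the 4 libraries. The AGO1 share goes from 21.8% and 22.1% in the controls to 30.1% and 34.9% after knockdown, the AGO4 share from 33.9% and 32.3% to 25.7% and 25.1%, and TNRC6A holds 75.3% to 77.7% of its family throughout.

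The TNRC6 scaffolds bind Argonaute through their glycine-tryptophan repeats and hand the target over to the CCR4-NOT deadenylase. TNRC6A (ENSG00000090905, chr16:24610209-24827632, plus strand) was at 189.1 and 156.3 CPM in the controls and at 181.2 and 142.9 CPM after knockdown. The groups overlapped, and in each group replicate 2 was the lower. The log2 fold change was -0.09 (SE 0.15, 95% interval -0.44 to 0.25, adjusted p = 0.76), and it turned to 0.05 without control replicate 1 and to 0.08 without knockdown replicate 2.

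TNRC6B (ENSG00000100354, chr22:40044817-40335808, plus strand) was at 33.2 and 26.0 CPM in the controls and at 38.0 and 30.7 CPM after knockdown. Its groups overlapped too, with replicate 2 again the lower in each. The log2 fold change was 0.21 (SE 0.16, 95% interval -0.14 to 0.57, adjusted p = 0.44). Among the 10 genes TNRC6B and TNRC6A had the widest standard errors. TNRC6C, the family's remaining gene, was at 36.3 and 28.1 CPM in the controls and at 28.3 and 18.9 CPM after knockdown (log2 fold change -0.45, SE 0.20, adjusted p = 0.18). Of the TNRC6C windows of 65 bases, 13.2% also occur in TMC6, which lies on the opposite strand. Within the TNRC6 sum per length, the share of TNRC6B was 8.59% and 8.25% in the controls and 10.4% and 10.8% after knockdown, and that of TNRC6C was 16.1% and 15.3% against 13.3% and 11.4%.

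Replicate 2 was lower than replicate 1 in both groups for 5 of the 10 genes, AGO3, AGO4, DICER1, TNRC6A and TNRC6B, against 38.9% of all genes tested. For TNRC6A the log2 ratio of replicate 2 to replicate 1 was -0.28 in the controls and -0.34 after knockdown, and for TNRC6B it was -0.35 and -0.31. For both genes these distances between replicates were larger than the distance between the groups. AGO1 behaved otherwise, with log2 ratios between replicates of 0.03 in the controls and 0.11 after knockdown.

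Levels per kb of all annotated exons were set in order to compare the genes with each other. In the controls DROSHA led with 15.7 CPM per kb, followed by TNRC6A with 13.3 and XPO5 with 10.2. These 3 did not overlap with their neighbours in the order in any library. A middle group followed, with DGCR8 at 5.56, AGO2 at 5.19, AGO4 at 4.74, DICER1 at 3.82 and AGO1 at 3.14 CPM per kb. Over the 4 libraries the ranges of neighbours in this group overlapped, while in the control libraries alone they did not. TNRC6B at 1.48 and AGO3 at 1.23 CPM per kb came last, below all others and overlapping with each other. The places in the middle group depend on the length used. With the length of the canonical transcript in place of all exons, DICER1 was at 8.14 CPM per kb in the controls and moved from place 7 to place 5, XPO5 was at 16.2 and DGCR8 at 9.04 CPM per kb, and the first 4 and the last 3 places held the same genes. After knockdown AGO1 stood at 4.77 CPM per kb of all exons and AGO4 at 3.74.

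Several of these mRNAs have very long 3′ UTRs, the part of an mRNA where microRNAs mostly bind. In the canonical transcripts of GENCODE v44 the 3′ UTR was 10925 bases in AGO1, 11888 in AGO2, 16755 in AGO3 and 12567 in TNRC6B, but 938 in DROSHA and 1534 in XPO5. The 6-base word GCAACC, searched on the transcript strand only, was picked because it had come up earlier in these same data, so its presence is described and not tested. It occurred in the 3′ UTR of 5 of the 10 genes (AGO1, AGO2, AGO3, TNRC6A and TNRC6B), beside 23.4% of the 12515 tested genes with such a 3′ UTR. Longer 3′ UTRs hold more words of any kind, and among the 144 genes with at least 10000 bases 89.6% held it, against 5.95% of those under 1000 bases. The 4 sites outside AGO2 are shown with their neighbouring bases because the word itself is too short to be placed, 5′ to 3′ on the transcript strand with the word in capitals (GRCh38).
AGO1: tgctgcagaactGCAACCttttgtaccttt
AGO3: atataagcagtaGCAACCtgaactattctt
TNRC6A: ggttctcatagaGCAACCgattaaaaatct
TNRC6B: cagacaacaaaaGCAACCtgaggagaggtt
The AGO1 site lies at chr1:35920401-35920430 and the AGO3 site at chr1:36056690-36056719. The TNRC6A site lies at chr16:24825536-24825565 and the TNRC6B site at chr22:40334532-40334561. In the canonical 3′ UTRs each of these genes held 1 copy. The 5 genes with the word had log2 fold changes from -0.09 to 0.60, and AGO1 alone among them was called. Of 2545 mature human microRNAs in the RefSeq table, 1 had bases 2 to 7 complementary to the word. Its base 8 pairs with the base ahead of the word at none of the 4 sites shown. The microRNA is printed with its seed, bases 2 to 8, in capitals.
hsa-miR-656-5p: aGGUUGCCugugagguguuca
It maps to chr14:101066731-101066751 on the plus strand. The row of its host hairpin had 10 and 3 counts in the controls and 5 and 0 after knockdown, which is too shallow for a comparison and measures polyadenylated RNA over the hairpin, not the mature microRNA.

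The factors that work with these 10 genes were taken from 7 lists of 107 genes, of which 94 were tested. After TOP2B knockdown 2 of them were higher and 2 lower, 4.26% of those tested beside the 10.8% over all genes, with a median log2 fold change of 0.02. The highest share called in a single list was 9.52%, for deadenylation and translational repression, also below 10.8%. The counts per list are therefore not read as results about the lists. In the nuclear processing list 0 of 15 genes were called. HNRNPA2B1, an RNA-binding protein linked to primary microRNA processing and the most abundant gene of that list, was at 1219 and 1165 CPM in the controls and at 1293 and 1306 CPM after knockdown (log2 fold change 0.12, adjusted p = 0.66).

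Among the partners of DICER1 and the chaperones that load Argonaute, 0 of 18 genes were called, 6 log2 fold changes were above 0 and 12 below, and the median was -0.13. The chaperone HSPA8 was the most abundant, at 2195 and 2116 CPM in the controls and at 2353 and 2390 CPM after knockdown (log2 fold change 0.14, adjusted p = 0.64). Of 12 heat shock chaperones and co-chaperones, a group picked out after the values were seen, 9 had log2 fold changes below 0, in a range from -0.32 to 0.36.

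Among 13 tested proteins that bind Argonaute, 1 was called lower. LIMD1, a LIM domain protein that links Argonaute to the cap-bound complex, was at 107.8 and 121.5 CPM in the controls and at 83.7 and 81.9 CPM after knockdown. Both knockdown libraries lay below both controls. The log2 fold change was -0.47 (SE 0.12, adjusted p = 0.035). Of the LIMD1 exon bases, 24.9% overlap the antisense gene LIMD1-AS1, and reads of the pair cannot be told apart without strand. Its relative AJUBA, the most abundant gene of the list, was at 264.2 and 315.6 CPM in the controls and at 200.5 and 232.7 CPM after knockdown (log2 fold change -0.42, SE 0.15, adjusted p = 0.10), and was not called.

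Of the 21 deadenylation and translational repression genes, 1 was higher and 1 lower, and both are subunits of CCR4-NOT, the complex that TNRC6 recruits to shorten poly(A) tails. CNOT3 was at 47.3 and 48.4 CPM in the controls and at 64.0 and 63.0 CPM after knockdown (log2 fold change 0.41, SE 0.11, adjusted p = 0.048). CNOT6, a deadenylase subunit, was at 91.2 and 104.4 CPM in the controls and at 72.2 and 70.4 CPM after knockdown (log2 fold change -0.46, SE 0.12, adjusted p = 0.041). Neither gene's groups overlapped. Of the CNOT3 exon bases, 7.64% are shared with LENG1 on the opposite strand. Over the 11 CCR4-NOT genes of the list, a group picked out after the values were seen, the median log2 fold change was 0.05. PABPC1, a poly(A)-binding protein and the most abundant gene of the list, was at 1499 and 1777 CPM in the controls and at 1644 and 2028 CPM after knockdown (log2 fold change 0.16, adjusted p = 0.61).

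In the decapping and decay list 1 of 18 genes rose. LSM7, a subunit of the LSM1 to LSM7 ring that binds deadenylated mRNA ends before decapping, was at 20.7 and 19.8 CPM in the controls and at 33.5 and 33.9 CPM after knockdown. The knockdown libraries were both far above the controls. The log2 fold change was 0.74 (SE 0.12, adjusted p = 0.0060), larger than that of AGO1 by its point estimate. Over the 7 genes of the ring, also picked out after the values were seen, 5 log2 fold changes were above 0 and LSM7 alone was called. The helicase DDX6, which joins CCR4-NOT to decapping and was the most abundant of the list, was at 252.3 and 248.4 CPM in the controls and at 251.8 and 251.6 CPM after knockdown (log2 fold change 0.01, adjusted p = 0.98).

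Of the small RNA tailing and turnover list, 8 of 11 genes were tested and 0 called. ZSWIM8, which directs Argonaute to degradation when a target pairs extensively with its microRNA, was at 112.8 and 100.7 CPM in the controls and at 122.0 and 105.7 CPM after knockdown (log2 fold change 0.09, adjusted p = 0.70). Of the 10 PIWI pathway genes, a germline branch of small RNA silencing, only PLD6 had enough counts to be tested, at 5.21 and 5.04 CPM in the controls and at 5.70 and 5.40 CPM after knockdown (log2 fold change 0.11, adjusted p = 0.75).

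The 4 partner genes called were refitted without 1 library at a time, with the lone library of a group assumed to vary like the other group, so that the standard errors grew. LSM7 stayed called in each of these fits (log2 fold change 0.71 to 0.77, adjusted p from 0.0034 to 0.010). CNOT3 kept a log2 fold change of 0.39 to 0.43, beside 0.41 with all libraries, but its standard error went from 0.11 to between 0.188 and 0.195 and it was not called in any of them (adjusted p from 0.15 to 0.21). CNOT6 and LIMD1 stayed called only without control replicate 1 (adjusted p = 0.037 and 0.038). Without control replicate 2, knockdown replicate 1 or knockdown replicate 2, their adjusted p was 0.32, 0.13 and 0.18 for CNOT6 and 0.28, 0.13 and 0.17 for LIMD1, with log2 fold changes of -0.55 to -0.35 and -0.56 to -0.37 over all such fits.

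**Figure D5:**
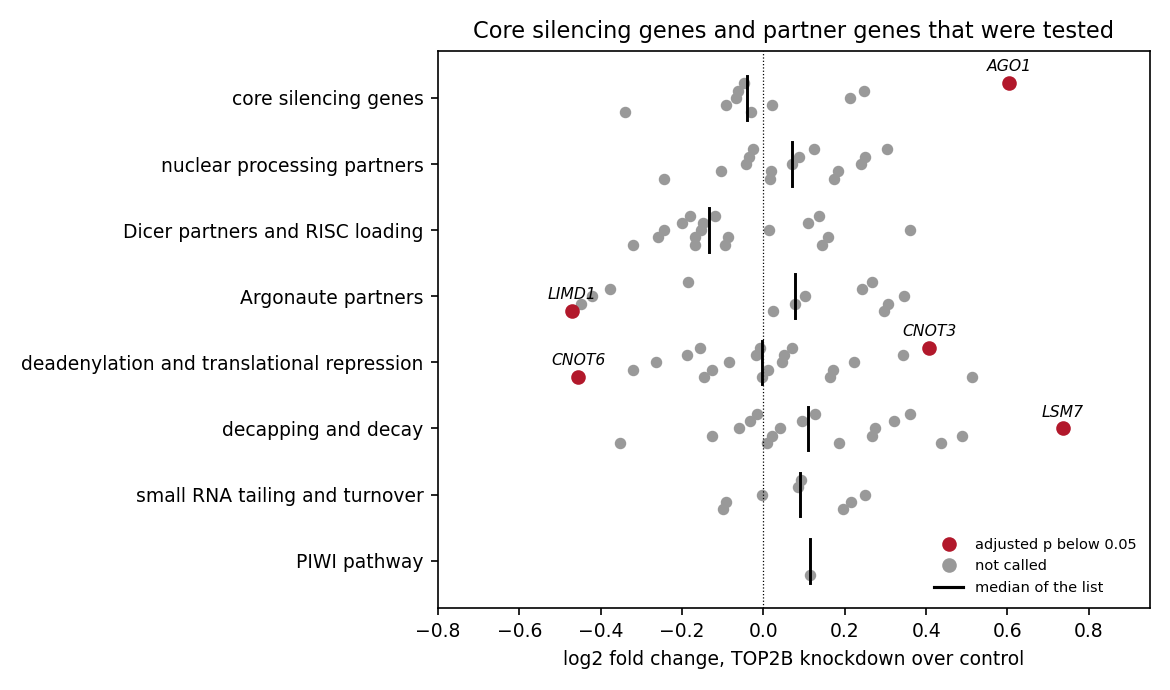
Fitted log2 fold change (TOP2B knockdown over control) of every tested gene, 1 point a gene, for the 10 core silencing genes and the 7 partner lists, with a bar at each list's median. Called genes are named: AGO1 (0.60), LSM7 (0.74) and CNOT3 (0.41) lie to the right of 0 and CNOT6 (-0.46) and LIMD1 (-0.47) to the left, while the medians of all lists lie between -0.13 and 0.12.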

How the data were processed

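RNA was measured in 4 libraries of 65-base single-end reads. Per the submitters' processing notes and methods, the authors checked reads with FastQC 0.11.6, aligned them to GRCh38 with STAR 2.5.4a and deposited raw counts per gene of GENCODE v24. The strand setting of the counting was not given in the sources used here. The kit does not mark strand and reads were single-end, but the column names call the libraries stranded and paired, and which holds for the counting was not settled, so reads of overlapping genes on opposite strands are treated as not told apart. Exon bases shared with other genes also made up 12.5% in HNRNPA2B1, 15.1% in HSPA8, 19.0% in ZSWIM8 and 24.3% in PLD6. Another 4 columns were identical copies and were left out. The study calls the 2 samples of a group independent biological replicates. A gene entered the test when 2 or more libraries held 10 or more counts of it. The test was that of edgeR 4.0.16 (R 4.3.3, TMM scaling, quasi-likelihood test, Benjamini-Hochberg adjustment over all genes tested, called at 0.05). The test was first run on simulated data. Symbols, positions and lengths came from GENCODE v44, exon length being the union of exons. Genes named in the text were the 10 genes, TOP2B, and in each partner list the called genes and the most abundant gene. TNRC6C and 2 complexes and 1 chaperone group were added after their values were seen. The genes and lists were chosen with earlier results of these data known. Alternatives were DESeq2 1.42.0, other size factors, other filters, a replicate block and each library left out.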

Additional observations from a re-analysis of the deposited data

How the results depend on the processing

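AGO1 was called under every alternative run, with log2 fold changes of 0.59 to 0.61 under the other scalings, filters and tools. AGO4, DGCR8 and TNRC6B were not called under any of these scalings, filters or tools, but were called with replicate number as a block. Leaving out 1 library at a time turned the sign of 5 genes, with ranges of -0.203 to 0.0779 for AGO2, -0.0643 to 0.116 for AGO3, -0.208 to 0.137 for DICER1, -0.269 to 0.0779 for TNRC6A and -0.122 to 0.0365 for XPO5. In the same runs the partner genes called higher went from 1 to 2 and those called lower from 0 to 2. Partner genes called higher were 1 with DESeq2 size factors, and those called lower were 4 with the DESeq2 Wald test and 4 with no filter. CNOT3 was not called under these 3 settings (adjusted p = 0.062, 0.072 and 0.063). Over all genes, calls without a filter were 1358 higher and 985 lower, beside 1023 and 642.

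Samples with the same replicate number deviated together (correlation 0.48), but with 2 pairs and no source for the pairing the numbers were taken as numbers only. With replicate number as a block, 3440 genes rose and 3346 fell among the 15356 genes tested. Of the 10 core silencing genes 3 were then called higher and 1 lower, adding AGO4 (-0.34, adjusted p = 0.0011), DGCR8 (0.25, adjusted p = 0.0053) and TNRC6B (0.21, adjusted p = 0.019). Of the 94 partner genes tested, 30 were higher and 21 lower. Calls were thus common over all genes in this fit, and those among the core and partner genes are not read as results about them. The cause of the added calls was not tested. With 2 libraries a group, the standard errors of the 10 genes were 0.12 to 0.16 on the log2 scale, and the intervals of the genes not called reached from -0.62 to 0.57. Protein, mature microRNA and silencing activity were not measured. P-values cover the spread between these libraries only.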
